A study of Mus musculus with 6 samples.

Results

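The 67 genes described here are the replication-dependent histone genes of the mouse, chosen as the protein-coding GENCODE M21 genes whose symbols begin with Hist1h, Hist2h, Hist3h or Hist4h, out of 55335 genes in the count table. By histone class they comprise 6 H1, 18 H2A, 18 H2B, 12 H3 and 13 H4 genes. By position, 54 lie in the Hist1 cluster on chromosome 13, 10 in Hist2 on chromosome 3, 2 in Hist3 on chromosome 11 and 1, Hist4h4, on chromosome 6. The choice used names alone and no measured value. Wild-type MEF (mouse embryonic fibroblasts), which grow attached to their dish and make connective tissue matrix, were seeded on a transwell membrane with 3 μm pores, and the cells that had passed to the lower side were collected after 15 h (Confine). Their RNA was compared with that of parental MEF (Ctrl), with no other agent or allele named for either group. In the study's transwell method, given for wider pores, the upper medium lacked serum and the lower medium held it. Whether serum differed between the groups here is not stated, and its part was not tested. The cells in Confine were selected by having passed, so a change brought by passage and a difference between the cells that passed and those that did not cannot be told apart.

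The table had 3 Ctrl and 3 Confine columns, but the columns of Confine replicates 1 and 2 hold equal values throughout, over 55335 genes, so they enter once and are called Confine replicate 2 here. This left 3 Ctrl and 2 Confine libraries. Total counts were between 22287210 and 32537550 per library. Nothing in the sources states whether the replicates came from separate cultures, so p-values measure the spread between these libraries, which may be technical. Of 15 fibroblast markers, Thy1, Lum and Fap were at 0 to 2 counts and Dcn at 0 to 27, while the collagen gene Col1a1 was at 2353 ± 184.2 CPM (normalized counts per 1000000 counts of the library; SD, n = 3) in Ctrl and 3709 ± 157.1 CPM (n = 2) in Confine. Among the 11 tested, 6 rose and 1 fell in Confine by edgeR's quasi-likelihood test at an adjusted p under 0.05. The summed level of 17 leukocyte markers was 20.1 to 24.5 CPM in Ctrl and 38.01 to 44.9 CPM in Confine, with 6 of them, including Adgre1 and Cd3e, at 0 in every library and Ptprc at 0 to 2 counts. Of the 7 tested, Cd68 rose from 3.14 ± 0.773 to 20.0 ± 4.78 CPM, Cd14 and Csf1r rose too, and Lyz2 and Coro1a fell. The 8 epithelial markers summed to 0.415 to 0.794 CPM in Ctrl and 4.02 to 8.77 CPM in Confine, of which Krt19 gave 0.138 to 0.265 CPM in Ctrl and 3.85 and 8.10 CPM in Confine, with Epcam, Krt18 and Cldn4 at 0. The 7 endothelial markers summed to 0.595 to 1.36 CPM in Ctrl and 2.43 to 2.70 CPM in Confine. Vwf, the only one tested, rose from 0.394 ± 0.217 to 2.49 ± 0.077 CPM, while Pecam1, Cdh5, Kdr and Tek had 0 to 11 counts in Ctrl and 0 to 3 in Confine, and Cldn5 and Emcn were at 0. The part of these markers in the histone values was not tested. In bulk RNA, fewer cells of a type and less RNA per cell cannot be told apart.

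Histones are the proteins around which DNA is wound. Pairs of H2A and H2B and of H3 and H4 build the nucleosome core, and H1 binds the DNA between nucleosomes. Replication-dependent histone genes are transcribed mainly in S phase, when new DNA must be packaged. Their mRNAs are the best known mRNAs of animal cells that end without a poly(A) tail. A short stem-loop near the end of the message is bound by the stem-loop binding protein Slbp, and the message is cut a few bases after it by a complex that includes the U7 small nuclear RNA. When replication stops, these messages are degraded. Some of these genes also give longer messages that run past the stem-loop, or splice around it, and end with a poly(A) tail, a form known from cells that have left the cell cycle. Because the libraries were made from RNA purified with polyT, they should favour the polyadenylated part of histone RNA. How much of the histone counts came from messages with a tail was not measured. The values below are not levels of all histone mRNA.

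The histone stem-loop was searched by its consensus in the transcripts of GENCODE M21 (genome build GRCm38), and 46 of the 67 genes have one. Below are 6 of them with their neighbours, 30 bases each on the strand of the message, 5′ to 3′, with the 16 bases that form the stem and loop in capitals. They are shown because they belong to genes whose values are given below, and include the 2 with a stem-loop that fell, Hist1h4i and Hist1h2bj.
Hist1h4i: cttaaaGGCCCTTTTTAGGGCCaccacaaa
Hist1h4h: accaaaGGCCCTTTTCAGGGCCgcccacat
Hist1h2bj: tccaaaGGCTCTTTTCAGAGCCacgcacaa
Hist1h2bg: cccaaaGGCTCTTTTCAGAGCCacccatac
Hist1h2ac: cccaaaGGCTCTTTTCAGAGCCcccacttt
Hist1h1c: ccaaaaGGCTCTTTTCAGAGCCaccactcc
The capitals are identical in the H2A, H2B and H1 genes shown. Over all 46 genes there were 8 different stem-loops, and the one in capitals for Hist1h2bj was the most common, in 26 genes.

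Annotated transcripts differ more in what follows the stem-loop. In 23 genes the longest annotated transcript runs 100 or more bases past the stem-loop, in 23 others it ends within 100 bases of it, and in 21 genes no stem-loop was found in the annotated transcripts. Of these 21, 17 have transcripts that end at or near the coding end, 3 are spliced past the coding exon (Hist1h2bc, Hist1h2bq and Hist1h2br) and 1, Hist2h2be, has a long 3′ part. The poly(A) signal AATAAA, or its variant ATTAAA, lay in the last 40 bases of a transcript in 17 of the 67 genes, in 12 of the 23 that run far past the stem-loop and in 2 of the 23 that end near it. Hist1h2bj ends 23 bases after the stem-loop. Hist1h4i ends 330 bases after it and Hist1h1c 840. Hist1h2bc, an H2B gene on the plus strand at chr13:23684199-23692908, is annotated with 2 exons only. Its first exon of 423 bases ends 9 bases after the stop codon, and after an intron of 7554 bases a second exon of 733 bases, wholly noncoding, closes the transcript, so that no stem-loop is in it.

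**Figure D1:**
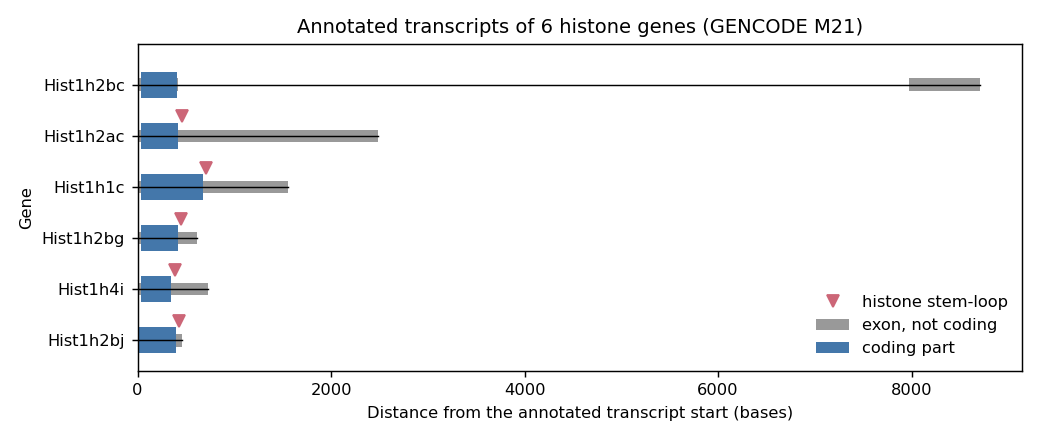
Annotated transcripts of 6 histone genes in GENCODE M21, drawn as distance in bases from the transcript start, with wide bars for the coding part, thin bars for other exon sequence and triangles for the stem-loop. The second exon of Hist1h2bc lies beyond an intron of 7554 bases and carries no stem-loop, while Hist1h2bj ends 23 bases after its stem-loop.

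Histone counts were low. The 67 genes together took 2093, 2164 and 1783 counts in Ctrl replicates 1 to 3 and 3131 and 2397 in Confine replicates 2 and 3, or 75.1 to 96.2 CPM before normalization. Among them 16 were at 0 in every library, 43 stayed under 10 counts in every library, and 24 reached 10 counts in at least 1. A count of 0 allows up to 3 counts, or 0.101 to 0.128 normalized CPM, and this floor covers counting error only. The filter on low counts passed 20 genes, of which 3 encode H1, 3 H2A, 7 H2B and 7 H4. No H3 gene passed. The other 47 were not tested, and among them the highest count in any library was 17.

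Near-identical copies limit what a low count says of a single gene. Of 100-base stretches of exon, a median of 15.1% were found in no other gene for the 16 genes at 0, against 85.4% for the 20 tested genes. The exon sequence of 5 of the genes at 0 was shared in full with other genes. How reads that match several genes were treated is not given in the sources used here, so the low counts of these genes are uncertain.

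Of the 20 tested histone genes, 3 passed edgeR's quasi-likelihood test for a difference in Confine at an adjusted p under 0.05, or 15%, where 23.0% of all 15881 genes tested did so. Hist1h2bc rose, where 12.8% of all genes rose, and Hist1h4i and Hist1h2bj fell, where 10.2% of all genes fell. With the cutoff of the study added, an absolute log2 fold change above 1.5, 1 gene was downregulated (Hist1h2bj) and 0 were upregulated, against 3.11% and 4.89% of all genes. Unadjusted p-values were under 0.05 for 9 of the 20. The share of all genes at that level was not counted, so no excess can be read from this. Of the 9, Hist1h4h passed the filter on low counts through Confine libraries alone. Hist4h4, Hist1h2bh and Hist1h2bb passed it through Ctrl libraries alone, so these p-values depend on the filter. The log2 fold changes were positive in 10 genes and negative in 10, with a median of -0.07 against -0.0021 over all genes. Confine lay wholly above Ctrl in 4 genes, wholly below it in 4, and the groups overlapped in 12, where 25.9% of all genes lay above and 23.6% below, 49.5% in all. The 4 above include Hist1h4h, and the 4 below include Hist4h4 and Hist1h2bh, whose lack of overlap depends on the filter in the same way.

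**Figure D2:**
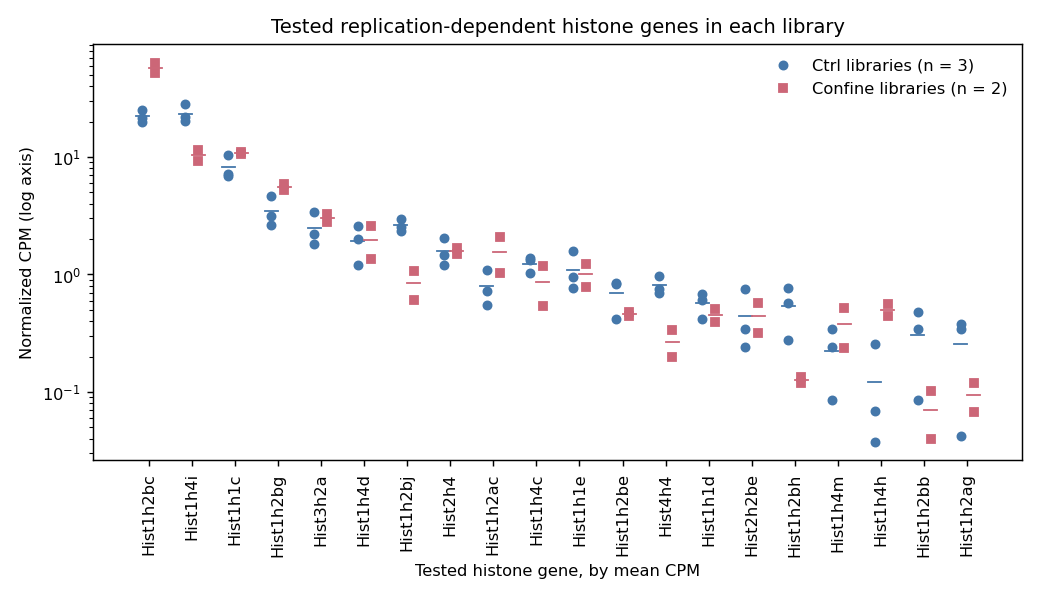
Normalized CPM, on a log axis, of the 20 tested histone genes in each of 3 Ctrl libraries (circles) and 2 Confine libraries (squares). Hist1h2bc and Hist1h4i lie above the other genes in Ctrl, while in Confine Hist1h2bc is higher in both libraries, and Hist1h4i, at 10.4 CPM, is lower and near Hist1h1c, at 10.8 CPM.

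Hist1h2bc, which encodes an H2B of the nucleosome core, had 571, 667 and 508 counts in Ctrl and 1874 and 1310 in Confine. The Confine libraries both lay well above the highest Ctrl library. In normalized CPM the level was 22.2 ± 2.79 (SD, n = 3) in Ctrl and 57.7 ± 7.99 (n = 2) in Confine. On the log2 scale this was a fold change of 1.38 ± 0.19 (SE), with an adjusted p of 2.51e-05 by edgeR's quasi-likelihood test, which is short of the fold cutoff of 1.5. Of its 100-base exon stretches, 74.6% were found in no other gene, and its coding sequence is 99.5% identical to that of Hist1h2bq. How many of its reads lay in the second exon cannot be read from counts per gene.

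Hist1h4i encodes the core histone H4 and lies on the minus strand at chr13:22040636-22041362. It had 582, 754 and 512 counts in Ctrl and 276 and 287 in Confine, and both Confine libraries were below every Ctrl library. The level was 23.5 ± 4.44 CPM (SD, n = 3) in Ctrl and 10.4 ± 1.46 CPM (n = 2) in Confine, a log2 fold change of -1.18 ± 0.22 (SE) with an adjusted p of 0.000573 by edgeR. In this gene 84.9% of exon stretches were found nowhere else.

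Hist1h2bj, an H2B gene on the plus strand at chr13:22043214-22043676, is a neighbour of Hist1h4i. It had 86, 67 and 55 counts in Ctrl and 18 and 27 in Confine, again without overlap. The level was 2.61 ± 0.324 CPM (SD, n = 3) in Ctrl against 0.840 ± 0.328 CPM (n = 2) in Confine, for a fitted log2 fold change of -1.65 ± 0.40 (SE) with an adjusted p of 0.00488 by edgeR. Without Confine replicate 2 the log2 fold change was -1.28 and the adjusted p 0.0855, so the call rests on that library. That fit leaves 1 Confine library, which is assumed to vary like the Ctrl libraries. Of its exon stretches, 59.9% were found in no other gene.

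The other H2B genes tested did not pass the adjusted threshold. Hist1h2bg had 91, 70 and 110 counts in Ctrl and 174 and 133 in Confine, with both Confine libraries above Ctrl. Its level was 3.49 ± 1.06 CPM (SD, n = 3) and 5.58 ± 0.423 CPM (n = 2), a log2 fold change of 0.68 ± 0.29 (SE). The adjusted p was 0.101 by edgeR, 0.0362 by edgeR without Ctrl replicate 3 and 0.127 by DESeq2, the tool of the study. Hist1h2bh had 8, 15 and 18 counts in Ctrl and 4 and 3 in Confine, a log2 fold change of -2.02. Its adjusted p was 0.0646 by edgeR, 0.0379 by edgeR without Ctrl replicate 1 and 0.106 by DESeq2. The Hist1h2bh groups did not overlap, with counts near the floor in Confine. Hist1h2bh reached 10 counts only in Ctrl and passed the filter on low counts through those libraries, so its p depends on that choice. Hist1h2be had 12 to 22 counts in Ctrl and 12 and 13 in Confine, and it overlaps Hist1h1e on the same strand, so reads of these 2 genes may not be told apart. Hist2h2be, the gene with a long 3′ part in place of a stem-loop, was at 0.446 ± 0.273 CPM in Ctrl and 0.446 ± 0.182 CPM in Confine. Hist1h2bb had 14, 9 and 2 counts in Ctrl and 3 and 1 in Confine, with overlap.

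The make-up of the H2B counts can be read from ratios within a library, which need no normalization. Hist1h2bc counts were 6.64, 9.96 and 9.24 times those of Hist1h2bj in Ctrl, and 104.1 and 48.5 times in Confine. Hist1h2bg and Hist1h2bj were nearer each other in Ctrl, with ratios of 1.06, 1.04 and 2.00, and stood at 9.67 and 4.93 in Confine. Neither pair of ratios overlapped between the groups. In Confine, Hist1h2bc and Hist1h2bg lay wholly above Ctrl and Hist1h2bj wholly below it. The lack of overlap follows from those levels and adds nothing to them. These ratios were not tested.

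Among H4 genes, 6 were tested beside Hist1h4i and none passed the adjusted threshold. Hist1h4d had 58, 32 and 61 counts in Ctrl and 76 and 34 in Confine, or 1.94 ± 0.695 CPM and 1.96 ± 0.861 CPM, with wide overlap. Hist2h4 was at 1.57 ± 0.425 CPM in Ctrl and 1.60 ± 0.128 CPM in Confine, and Hist1h4c at 1.24 ± 0.193 CPM and 0.866 ± 0.460 CPM. In both of these genes the groups overlapped as well. Hist4h4, the single gene of its cluster, had 20, 20 and 23 counts in Ctrl and 10 and 5 in Confine, a log2 fold change of -1.55 ± 0.59 (SE) with an adjusted p of 0.0669 by edgeR. Hist1h4h pointed the other way, with 2, 1 and 6 counts in Ctrl and 13 and 14 in Confine. Its adjusted p was 0.0664 by edgeR, 0.0177 by edgeR without Ctrl replicate 3 and 0.161 by DESeq2. Neither gene overlapped between the groups. Hist1h4h reached 10 counts only in Confine and passed the filter on low counts through those libraries. Hist4h4, with 10 and 5 counts in Confine, passed that filter through its Ctrl libraries. For both genes the p and the lack of overlap therefore depend on that choice. Hist1h4m, in which 11.9% of exon stretches were found in no other gene, had 2 to 9 counts in Ctrl and 7 and 13 in Confine.

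Among H1 genes, which encode linker histones, Hist1h1c led with 302, 190 and 161 counts in Ctrl and 324 and 269 in Confine. Its level was 8.15 ± 1.98 CPM (SD, n = 3) and 10.8 ± 0.188 CPM (n = 2), a log2 fold change of 0.40 ± 0.24 (SE) with an adjusted p of 0.242 by edgeR. Its groups did not overlap, but Ctrl replicate 1 at 10.4 CPM lay close to both Confine libraries. Hist1h1e was at 1.10 ± 0.433 CPM in Ctrl and 1.00 ± 0.321 CPM in Confine, and Hist1h1d at 0.567 ± 0.137 CPM and 0.452 ± 0.078 CPM, each with overlap. The testis form Hist1h1t and the testis pair Hist1h2aa and Hist1h2ba belong to the 47 genes that were not tested.

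Among H2A genes, Hist3h2a was highest, with 53, 58 and 80 counts in Ctrl and 83 and 82 in Confine, or 2.48 ± 0.823 CPM and 3.03 ± 0.319 CPM. The groups overlapped, and the gene overlaps Trim17, which had 5 to 13 counts. Hist1h2ac had 21, 29 and 13 counts in Ctrl and 62 and 26 in Confine, a log2 fold change of 0.98 ± 0.46 (SE) with an adjusted p of 0.144 by edgeR. Confine replicate 2 stood apart at 2.09 CPM, while Confine replicate 3 at 1.03 CPM lay within the range of Ctrl. Hist1h2ag had at most 26 counts over the 5 libraries and an adjusted p of 0.307. Of the 18 H2A genes, 17 are overlapped by an annotated miRNA gene on the opposite strand, all of which had 0 counts. The libraries keep the strand, but whether the counting used it is not given in the sources used here.

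No H3 gene passed the filter on low counts. The highest, Hist1h3d, had 10, 15 and 3 counts in Ctrl and 7 and 3 in Confine, or 0.347 ± 0.220 CPM and 0.178 ± 0.083 CPM. All 12 H3 genes together summed to 1.16 ± 0.194 CPM in Ctrl and 0.850 ± 0.135 CPM in Confine, with overlap. A fit without the filter on low counts covered the 31 untested genes that had counts, in which 0 had an unadjusted p under 0.05 by edgeR, and the lowest was 0.0513.

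**Figure D3:**
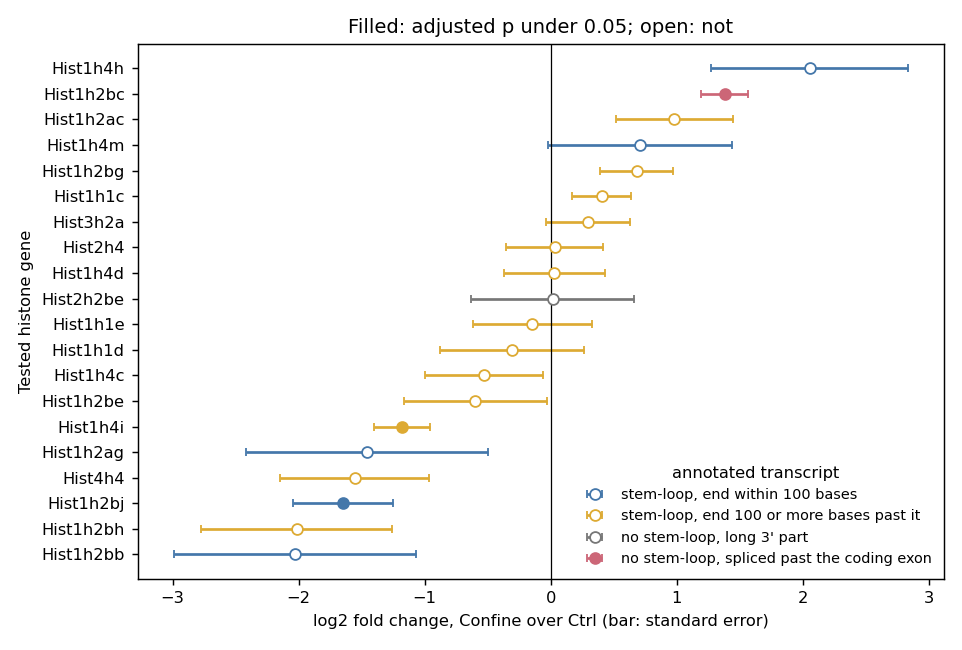
log2 fold change of Confine over Ctrl, with the standard error as bar, for the 20 tested histone genes, colored by the annotated transcript end and filled where the adjusted p was under 0.05. Hist1h2bc, at 1.38, is the filled point to the right of 0, and Hist1h4i, at -1.18, and Hist1h2bj, at -1.65, are the filled points to the left.

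Per kilobase of exon, which allows for the different lengths of the genes, Hist1h4i was highest in Ctrl at 32.3 ± 6.11 CPM per kb (SD, n = 3), followed by Hist1h2bc at 19.2 ± 2.41. Hist1h2bj at 5.65 ± 0.700, Hist1h2bg at 5.65 ± 1.71 and Hist1h1c at 5.23 ± 1.27 CPM per kb came next and did not differ beyond their spread. In Confine the leading pair changed places, with Hist1h2bc at 49.9 ± 6.91 and Hist1h4i at 14.3 ± 2.01 CPM per kb (n = 2). Hist1h2bg followed at 9.03 ± 0.684, Hist1h1c at 6.93 ± 0.120 and Hist1h2bj at 1.81 ± 0.708. Genes with nearly the same coding sequence thus had counts per kb far apart in the same library. Exon stretches found in no other gene were 84.9% in Hist1h4i, 74.6% in Hist1h2bc, 59.9% in Hist1h2bj, 55.1% in Hist1h2bg and 94.9% in Hist1h1c. How reads that match several genes were treated is not given, and its part in these differences was not tested. The exon length includes 3′ parts that a given transcript may lack, so these values are approximate.

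The make-up of the histone counts differed between the groups. Hist1h2bc took 27.3%, 30.8% and 28.5% of all histone counts in Ctrl and 59.9% and 54.7% in Confine. Hist1h4i took 27.8%, 34.8% and 28.7% in Ctrl and 8.82% and 12.0% in Confine. Shares of the same total are tied, so a larger Hist1h2bc share by itself lowers that of Hist1h4i. The mean normalized level of Hist1h4i was 23.5 CPM in Ctrl and 10.4 CPM in Confine. The 95% Wilson interval, which covers counting error only, was 58.1% to 61.6% for Hist1h2bc in Confine replicate 2 and 28.9% to 32.8% in Ctrl replicate 2, the highest of Ctrl. The counts of Hist1h2bc and Hist1h4i were nearly equal in each Ctrl library, with ratios of 0.981, 0.885 and 0.992, and 6.79 and 4.56 in the Confine libraries. Since Hist1h2bc rose and Hist1h4i fell, this difference in ratio follows from their levels.

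**Figure D4:**
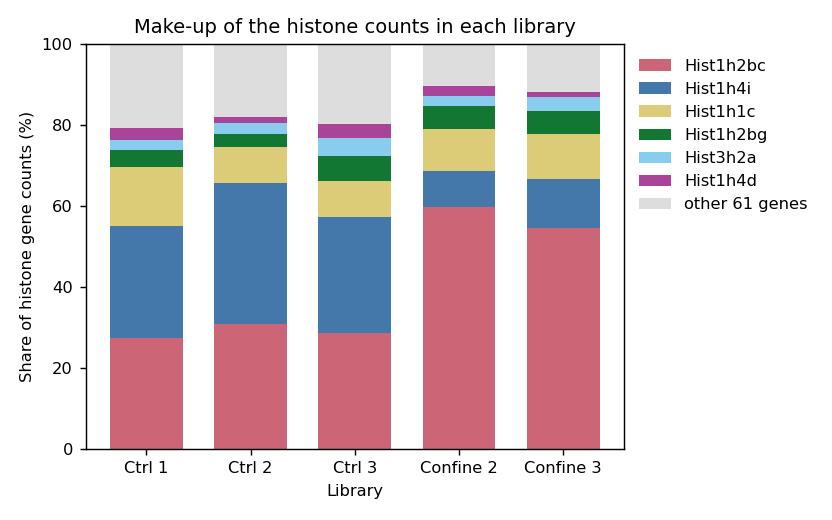
Share of each library's histone counts, in percent, taken by the leading histone genes and by all others together, for 3 Ctrl and 2 Confine libraries. The Hist1h2bc share is between 27.3% and 30.8% in Ctrl and at 59.9% and 54.7% in Confine, and the Hist1h4i share is 27.8% or more in Ctrl and 12.0% or less in Confine.

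Summed by class, the H2B and H4 values rested on these 2 genes. H2B genes summed to 31.1 ± 2.75 CPM (SD, n = 3) in Ctrl and 65.6 ± 8.25 CPM (n = 2) in Confine, a ratio of 2.11, but without Hist1h2bc to 8.89 ± 1.14 and 7.89 ± 0.263 CPM, a ratio of 0.888. H4 genes summed to 30.4 ± 4.22 CPM in Ctrl and 16.8 ± 1.12 CPM in Confine, a ratio of 0.553, and without Hist1h4i to 6.96 ± 1.15 and 6.48 ± 0.346 CPM, with overlap. H2A genes stood at 3.87 ± 0.236 CPM in Ctrl and 4.91 ± 0.370 CPM in Confine without overlap, and H1 genes at 10.1 ± 2.43 and 12.3 ± 0.140 CPM with overlap. Together the 67 genes summed to 76.6 ± 4.79 CPM in Ctrl and 100.5 ± 7.50 CPM in Confine. Without Hist1h2bc the sums were 54.5 ± 2.01 and 42.8 ± 0.489 CPM, so the order of the groups turned, and without both genes they were 31.0 ± 2.53 and 32.5 ± 0.975 CPM and overlapped. These sums are descriptions, with no test over the genes.

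By cluster, Hist1 summed to 71.1 ± 4.66 CPM in Ctrl and 94.8 ± 7.32 CPM in Confine and held nearly all the counts. Hist2 stood at 2.27 ± 0.524 CPM and 2.35 ± 0.403 CPM and Hist3 at 2.48 ± 0.823 and 3.03 ± 0.319 CPM, both with overlap. Hist4, with its single gene, stood at 0.808 ± 0.151 CPM in Ctrl and 0.268 ± 0.099 CPM in Confine. By transcript end, the 23 genes annotated to end within 100 bases of the stem-loop summed to 4.75 ± 0.615 CPM in Ctrl and 2.73 ± 0.801 CPM in Confine, and the 23 annotated to run farther summed to 48.2 ± 2.31 and 39.1 ± 0.270 CPM. In sums added after the data were seen, the first kind stood at 2.13 ± 0.310 and 1.89 ± 0.473 CPM without Hist1h2bj, with overlap, and the second at 24.8 ± 2.61 and 28.7 ± 1.73 CPM without Hist1h4i, so that the order of the groups turned. The 3 genes spliced past the coding exon summed to 22.2 ± 2.74 and 57.8 ± 8.06 CPM, nearly all of it from Hist1h2bc, since Hist1h2bq had 9 counts in all libraries together and Hist1h2br 0. Of these kinds 5, 13 and 1 genes were tested, so each sum rests on few genes.

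**Figure D5:**
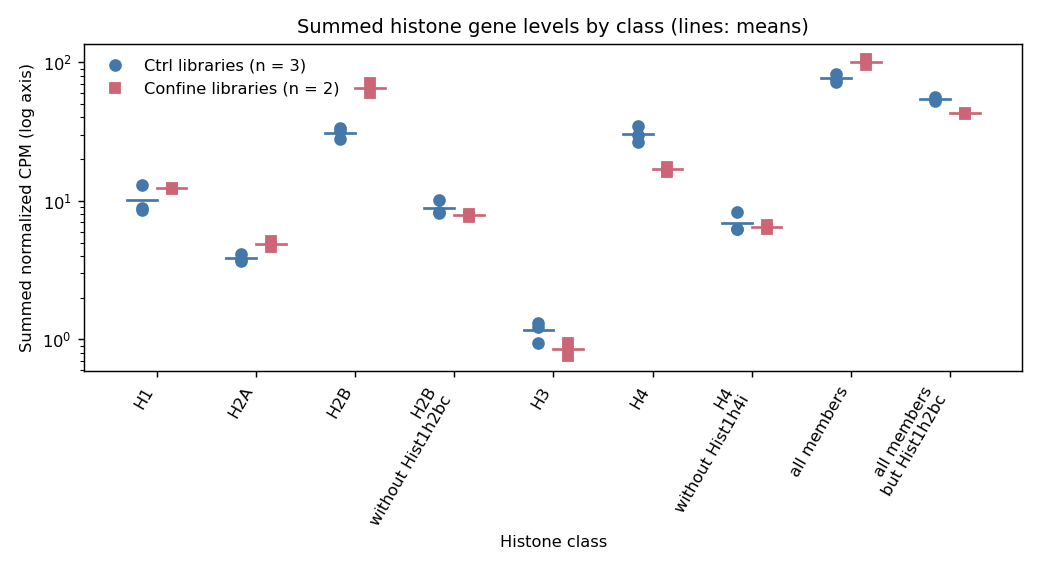
Summed normalized CPM, on a log axis, of each histone class in 3 Ctrl libraries (circles) and 2 Confine libraries (squares), with lines at the means, and of H2B, H4 and all genes with the leading genes left out. H2B is at 31.1 CPM in Ctrl and 65.6 CPM in Confine with Hist1h2bc, and at 8.89 and 7.89 CPM without it.

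Many histone genes stand head to head and share the DNA between their start sites. There were 13 such divergent pairs with start sites within 1000 bases, and 12 of them joined an H2A to an H2B gene across 175 to 305 bases. The H2B gene had more counts in 9 of these 12 pairs, the H2A gene in 1 (Hist1h2ap), and 2 pairs were equal. Several pairs had few counts, such as 7 in Hist1h2bl and 0 in Hist1h2ai. Exon stretches found in no other gene differed within pairs. Of the 9 pairs, their percentage was larger in the H2B gene for Hist2h2be, Hist1h2bl, Hist1h2bp, Hist1h2bk, Hist1h2bj and Hist1h2bf. It was larger in the H2A gene for the pairs of Hist1h2bn, Hist1h2bg and Hist1h2bc. For example, such stretches were 11.6% in Hist1h2ai and 37.9% in Hist1h2bl, but 84.0% in Hist1h2ak and 47.9% in Hist1h2bn. Their part in the tally was not tested. Hist1h2bc and Hist1h2ac form a divergent pair across 250 bases, and Hist1h2bj and Hist1h2ag another. Hist1h2bc counts were 27.2, 23.0 and 39.1 times those of Hist1h2ac in Ctrl and 30.2 and 50.4 times in Confine, and these ranges overlapped. The log2 fold changes were 1.38 and 0.98 in the first pair, and the difference between them was not tested. In the second pair, Hist1h2bj had 253 counts in all libraries together and Hist1h2ag 26.

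The stretches between the start sites of these pairs are printed from RefSeq (GRCm38.p6), each without the transcribed part, because they serve the H2B gene that rose and the one that fell. Capitals mark the TATA box TATAAA, the CCAAT box CCAAT and the octamer ATTTGCAT, searched on both strands, so that ATTGG and ATGCAAAT are the latter 2 read from the other strand. The octamer is bound by the factor Oct1 in H2B promoters, and CCAAT boxes are bound by NF-Y.
Hist1h2ac and Hist1h2bc, chr13:23683949-23684198, minus strand: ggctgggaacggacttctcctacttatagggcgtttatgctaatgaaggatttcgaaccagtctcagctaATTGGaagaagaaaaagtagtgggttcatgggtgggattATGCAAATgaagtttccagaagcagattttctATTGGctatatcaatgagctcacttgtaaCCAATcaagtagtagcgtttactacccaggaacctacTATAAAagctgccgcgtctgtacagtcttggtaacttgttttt
Hist1h2ag and Hist1h2bj, chr13:22042948-22043213, plus strand: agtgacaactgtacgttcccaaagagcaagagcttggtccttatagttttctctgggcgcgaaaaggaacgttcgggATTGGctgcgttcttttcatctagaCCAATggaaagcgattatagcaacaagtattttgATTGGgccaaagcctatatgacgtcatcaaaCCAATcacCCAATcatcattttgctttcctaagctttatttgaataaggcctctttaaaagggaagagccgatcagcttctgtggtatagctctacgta
The first holds 3 CCAAT boxes, the octamer and a TATAAA on the Hist1h2ac side. The second holds 5 CCAAT boxes and neither of the other motifs in these letters.

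Across the family, 62 of the 67 genes matched a RefSeq promoter window of 300 bases. CCAAT was found in every window of H1, H2A, H2B and H3 genes, but in 3 of 12 windows of H4 genes, where 37.4% of all 32851 windows hold it. TATAAA was in 55.6% of the histone windows and 13.6% of all windows. The octamer was in 7 of 18 H2A windows and 7 of 17 H2B windows, in 0 windows of H1, H3 and H4 genes, and in 1.74% of all windows. Windows of a divergent pair overlap, so the H2A and H2B counts are not independent. Hist1h4i has TATAAA and no CCAAT in its window. A match is a description and not a binding site.

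Replacement histones, which are mostly made outside S phase as well and from polyadenylated messages, give the context of these levels. Of 20 listed, 12 were tested, 6 fell and 0 rose, where 10.2% of all genes fell and 12.8% rose, with a median log2 fold change of -0.66 against -0.0021 over all genes. H2afx, whose product is phosphorylated at DNA breaks, fell from 10.3 ± 1.88 CPM (SD, n = 3) in Ctrl to 2.59 ± 0.605 CPM (n = 2) in Confine (adjusted p = 2.91e-05 by edgeR). H2afz, another H2A variant, fell from 601.2 ± 27.6 to 230.1 ± 17.0 CPM (log2 fold change -1.39, adjusted p = 1.77e-05), and the linker histone H1fx fell with a log2 fold change of -1.60 (adjusted p = 0.0199). The H3.3 genes did not pass, with H3f3a at 372.9 ± 31.4 and 416.7 ± 14.3 CPM and H3f3b at 1267 ± 62.9 and 1745 ± 200.9 CPM (adjusted p = 0.0661). The linker histone H1f0, known from resting and differentiated cells, was at 37.4 ± 8.65 and 36.8 ± 0.118 CPM (adjusted p = 0.955).

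Of 34 tested factors that make the ends of histone mRNA or govern its decay, 7 fell and 0 rose at an adjusted p under 0.05, where 10.2% of all genes fell and 12.8% rose, with a median log2 fold change of -0.15. Slbp, which binds the stem-loop, fell from 85.6 ± 6.93 CPM in Ctrl to 46.6 ± 8.24 CPM in Confine (log2 fold change -0.88 ± 0.19 SE, adjusted p = 0.00237 by edgeR). Casp8ap2 (FLASH), a partner of the U7 complex, fell by 0.76 on the log2 scale (adjusted p = 0.00788). The U7 components Lsm10 and Lsm11 had log2 fold changes of 0.11 (adjusted p = 0.724) and 0.59 (adjusted p = 0.0982), and Npat, the activator of histone transcription, one of -0.42 (adjusted p = 0.215). Zfp473, a zinc finger protein of the same complex, had 1 to 10 counts and was not tested.

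Histone chaperones, which carry new histones to DNA, fell in 10 of 27 genes and rose in 1, Ubn2 (log2 fold change 0.67, adjusted p = 0.00945 by edgeR), against 10.2% and 12.8% of all genes. The 5 that also passed the fold cutoff, all lower, where 3.11% of all genes were, include the subunits of chromatin assembly factor 1, Chaf1a at -1.63 and Chaf1b at -1.54, with Asf1b at -1.59, Nasp at -1.62 and Tonsl at -1.76. Each of these acts in deposition at replication forks or in the supply of histones to it. Of 36 S phase genes, 35 fell and 0 rose, where 10.2% of all genes fell, with a median log2 fold change of -1.46, and E2f1 was the exception (log2 fold change 0.21, adjusted p = 0.476). Pcna, the clamp of the replicative polymerase, fell from 309.0 ± 29.5 to 173.9 ± 9.54 CPM (adjusted p = 0.00243), Mcm10 from 40.1 ± 7.47 to 9.35 ± 0.483 CPM, and Mcm5, a subunit of the replicative helicase, from 251.8 ± 53.3 to 61.04 ± 1.31 CPM. Hist1h4i and Hist1h2bj moved in the same direction as these genes and Hist1h2bc in the other. The part of the fall of the S phase genes in the histone values was not tested.

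RNAs that normally carry no poly(A) tail were counted as a measure of how much untailed RNA each library held. Ribosomal RNA made up nearly all of it, at 6342, 6659 and 4881 CPM in Ctrl and 7179 and 5696 CPM in Confine, and all untailed classes together stood at 6511, 6846 and 5069 CPM in Ctrl and 7371 and 5878 CPM in Confine, both with overlap. Small nuclear RNAs summed to 63.4, 68.7 and 78.5 CPM in Ctrl and 87.3 and 82.6 CPM in Confine, wholly above Ctrl. Small nucleolar RNAs stood at 96.6 to 109.6 CPM in Ctrl and 92.2 and 98.4 CPM in Confine, with overlap, and small Cajal body RNAs at 7.50 to 8.04 CPM in Ctrl and 5.41 and 5.00 CPM in Confine, wholly below. These classes did not move in 1 direction. The 7SK RNA (Rn7sk) was at 0.265 to 0.383 CPM in Ctrl and 0.743 and 1.11 CPM in Confine, and Rmrp, Rpph1 and Terc were at 0. The part of untailed RNA in the histone values was not tested.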

How the data were processed

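MEF RNA was purified with polyT by the authors and sequenced from libraries that keep the strand. Per the labels, the authors' notes name Trim Galore 0.6.10, HISAT2 2.1.0, SAMtools 1.5, featureCounts and build mm10, and the authors deposited raw counts per gene in 6 columns, all mapped to samples. Settings for strand and for reads with several matches are not given in the sources used here. Of 55335 gene identifiers, 54587 were found with the same version in GENCODE M21 (GRCm38) and 55154 when versions were ignored. The rule left out 3 histone pseudogenes, which held 438 counts summed over the 5 libraries and are not in the class sums.

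Confine columns 1 and 2 were identical and counted as 1 library. Genes kept by filterByExpr (15881) were normalized by TMM (factors 0.910 to 1.08) and tested without a block in edgeR 4.0.16 (glmQLFTest, R 4.3.3), with Benjamini-Hochberg adjustment over all genes tested. Residual degrees of freedom were 3 and the median prior ones 14.8. The SE given for an edgeR log2 fold change is its absolute value divided by the square root of the test's F statistic, an approximation. "Rose" and "fell" mean an adjusted p under 0.05, and a call also needs an absolute log2 fold change above 1.5. The script was tested on simulated data. Alternatives were DESeq2 1.42.0, limma-voom (limma 3.58.1), other normalizations and filters, the cutoff inside the test, a replicate block and leaving out each library. Named were every called gene, the 15 other tested genes with the highest mean CPM and the 2 highest of each class. Hist1h2ag, Hist1h2bb, Hist1h4h, Hist1h4m and Hist1h3d were added after their values were seen, as was the octamer motif. Genes and lists were chosen with earlier results of these data known. Amino acid sequences and genome sequence after the stem-loops were not used here.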

Additional observations from a re-analysis of the deposited data

How the results depend on the processing

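Hist1h2bc stayed higher (log2 fold change 1.17 to 1.51) and Hist1h4i lower (-1.39 to -1.02) in all fits run, at an adjusted p under 0.05 except with the cutoff inside the test. Hist1h2bj was lower in all (-2.10 to -1.28) and lost significance in that test and without Confine replicate 2. A fit without a Confine library leaves 1, assumed to vary like the Ctrl libraries. The number of genes that rose, 1 in the reported fit, was 0 among genes with at least 80% unique stretches, 0 with the cutoff inside the test, 2 with limma-voom, 4 with the identical columns counted as 2 libraries, and 1 to 3 with a library left out. The number that fell, 2 as reported, was 1 among genes with unique stretches, 0 with the cutoff inside the test, 4 under library size alone, and 1 to 3 with a library left out. Upregulated calls, 0 as reported, were 1 with limma-voom, 1 with the identical columns counted as 2 and 0 to 1 with a library left out. Downregulated calls, 1 as reported, were 0 among genes with unique stretches, 0 with the cutoff inside the test, 3 under library size alone and 0 to 2 with a library left out. Library size alone moved the median of all genes to -0.21, the base against which its values are read.

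The median of the tested histone genes, -0.07 as reported, was -0.31 among genes with unique stretches, -0.28 under library size alone, -0.72 with no filter, 0.030 with at least 10 counts in every library, 0.090 with the identical columns counted as 2, and -0.51 to -0.14 with a library left out. With the replicate block it was -0.19 with the identical columns as replicate 2 and -0.23 as replicate 1, each with 1 residual degree of freedom. The block changed no gene's call. With the identical columns as replicate 2, the log2 CPM difference between 2 Ctrl libraries was correlated with that between the same-numbered Confine libraries. Each check rests on 1 difference per group. The correlations were -0.053 over the 15881 genes tested and -0.11 over the 10304 above a log2 CPM of 2. As replicate 1 these were 0.052 and 0.086, so the numbers were not taken to pair the libraries.

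Genes near 0 changed sign. Hist2h2be was at -0.00068 with DESeq2, -0.20 under library size alone, -0.27 with the block as replicate 2 and -0.48 to 0.36 with a library left out. Hist2h4 was at -0.18, -0.12 and -0.14 to 0.24 under the latter 3. Hist1h4d was at -0.18 under library size alone, -0.26 with the block as replicate 1 and -0.51 to 0.41 with a library left out, and Hist1h1e at 0.20 with the block as replicate 2 and -0.51 to 0.22. Of the class sums, as log2 ratios, library size alone gave 0.13 for H2A, 0.87 for H2B, -1.06 for H4 and 0.18 for all, and leaving out the leading gene of each class gave -0.37 for H1, -0.17 for H2B, -0.10 for H4 and -0.12 for all. The cause was not tested, except that leaving out a leading gene removes its counts by construction. With 2 Confine libraries and few counts, most low histone genes were not tested.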
